A study of Mus musculus with 2 samples.

Results

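Beta-catenin and the genes that carry and restrain its signal in the nucleus were described in the mouse limb at embryonic day 13.5: Ctnnb1, Lef1, Tcf7, Tcf7l1, Tcf7l2, Axin1, Axin2, Apc and Gsk3b. They were chosen by name and found through their Ensembl identifiers, and all 9 were present among the 43346 Ensembl genes of the tables. The libraries were made from total RNA over 200 nt of B6NCrl limbs, males and females pooled, starting from 10 ng each with synthetic spike-in RNA added. Both libraries belong to 1 group, limb at E13.5, and carry biological replicate numbers 1 and 2; the 2 share a donor entry but come from separate tissue samples. The labels do not say whether forelimbs or hindlimbs were taken, and no embryo was mutant or treated. With 1 group there was no comparison between conditions and no test; ± gives the SD over both libraries around their mean (n = 2), and nothing in the labels says that the embryos came from separate litters.

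In canonical Wnt signalling, a destruction complex built on the scaffolds Axin and Apc holds beta-catenin while the kinases casein kinase 1 and Gsk3 phosphorylate it for degradation. A Wnt ligand stops this, and beta-catenin then enters the nucleus and binds Tcf/Lef factors, which sit on DNA through an HMG box and otherwise hold corepressors of the Tle family. In the limb the pathway is known for its part in the apical ectodermal ridge, in patterning the back and front of the limb, and in holding mesenchyme back from cartilage.

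Replicate 1 held 31927117 expected counts and replicate 2 held 43194518, and log2(TPM + 1) correlated across genes between them at r = 0.995, where genes are not independent replicates. The defining markers of limb mesenchyme (7 of 7), ectoderm (5 of 5), cartilage (4 of 4), muscle (3 of 3) and endothelium (3 of 3) were all at 10 TPM or more in both libraries. Of all protein-coding genes, 40.9% were at that level. TPM is a relative level divided by transcript length and scaled to the same total in each library. In a whole limb, fewer cells of a type and less RNA per cell cannot be told apart.

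All 4 Tcf/Lef genes share a coding exon of 108 bases that encodes part of the HMG box, and the sequence is shown because the HMG box is what joins these genes into 1 family. Of the 108 bases, 74 (68.5%) were the same in all 4 genes, and these are in capitals. Each is written 5′ to 3′ on the gene's own strand, from GENCODE M21 transcripts on GRCm38. The exons lie at chr19:55919511-55919618 for Tcf7l2, chr3:131200295-131200402 for Lef1, chr6:72631012-72631119 for Tcf7l1 (minus strand) and chr11:52256740-52256847 for Tcf7 (minus strand).
Tcf7l2: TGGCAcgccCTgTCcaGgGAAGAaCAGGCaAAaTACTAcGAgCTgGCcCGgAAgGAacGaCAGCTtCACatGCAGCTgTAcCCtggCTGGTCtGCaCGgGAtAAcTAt
Lef1: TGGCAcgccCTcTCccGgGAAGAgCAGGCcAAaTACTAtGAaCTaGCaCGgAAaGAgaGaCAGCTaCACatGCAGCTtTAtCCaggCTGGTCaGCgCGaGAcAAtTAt
Tcf7l1: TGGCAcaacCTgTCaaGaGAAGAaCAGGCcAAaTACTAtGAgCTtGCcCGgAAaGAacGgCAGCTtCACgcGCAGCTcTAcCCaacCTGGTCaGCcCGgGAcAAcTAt
Tcf7: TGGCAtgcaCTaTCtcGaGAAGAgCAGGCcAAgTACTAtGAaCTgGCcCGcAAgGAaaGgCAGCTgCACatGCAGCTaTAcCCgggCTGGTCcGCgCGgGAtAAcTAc

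Identity between pairs of these exons ran between 76.9%, for Tcf7l1 and Tcf7, and 83.3%, for Tcf7l2 and Tcf7l1. The expected counts divide reads that match several transcripts by a model. The tables do not say how many reads were divided in this way.

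Every one of the 9 genes was at 1 TPM or more in both libraries, against 34.6% of all Ensembl genes and 61% of protein-coding genes. At 10 TPM or more in both there were 7 of 9, all but Axin1 and Tcf7, against 21.2% of all Ensembl genes and 40.9% of protein-coding genes. The median of the 9 was 39.1 TPM, against 20.6 TPM over the 13100 protein-coding genes at 1 TPM or more. A share of this kind describes genes picked by name, and says nothing of what is particular to them.

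Ctnnb1, which encodes beta-catenin, lies at chr9:120929216-120960507 on the plus strand. It had 449.7 and 468 TPM in replicates 1 and 2, a mean of 458.9 ± 12.9 TPM from 30915 and 42650 expected counts. It ranked 306 among all genes by mean TPM. The authors' credibility bounds, which belong to their posterior mean, were 434 to 445.5 TPM in the library of replicate 1 and 454.8 to 465.1 TPM in that of replicate 2, so the deposited TPM lay just above them in both. Ctnnb1 was the most abundant of the 9 genes in both libraries. Beta-catenin also joins cadherins to the cytoskeleton, so its mRNA level is not a measure of signalling alone.

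**Figure D1:**
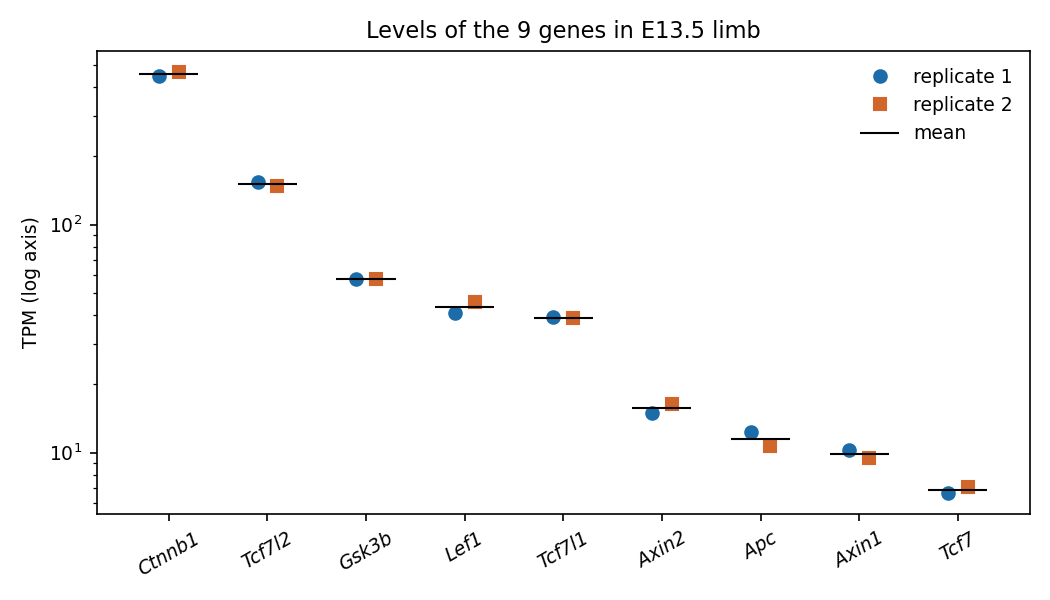
TPM of the 9 genes (log axis) in replicate 1 (blue circles) and replicate 2 (orange squares), with the mean as a bar. Ctnnb1 stands highest at 458.9 TPM and Tcf7 lowest at 6.85 TPM, and the libraries lie close together for each gene.

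Of the factors that beta-catenin binds, Tcf7l2 was the most abundant. Tcf7l2, at chr19:55741820-55933654 on the plus strand, had 154.3 and 147.5 TPM in replicates 1 and 2 (150.9 ± 4.82 TPM). Lef1, at chr3:131110471-131224356 on the plus strand and known mostly as an activator, had 41.02 and 45.92 TPM (43.5 ± 3.47 TPM). Tcf7l1, at chr6:72626378-72789254 on the minus strand and known mostly as a repressor, had 39.25 and 38.91 TPM (39.1 ± 0.240 TPM). Lef1 and Tcf7l1 were close in replicate 1 and further apart in replicate 2. Tcf7, at chr11:52252371-52283014 on the minus strand and best known from T cells, had 6.64 and 7.06 TPM (6.85 ± 0.297 TPM) from 313 and 438 expected counts. It was the lowest of the 9 genes in both libraries. The other 3 factors rest on more reads: Tcf7l2 on 8261 and 10518 expected counts, Lef1 on 2772 and 4099, and Tcf7l1 on 2344 and 3034.

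The authors' credibility bounds for the factors were given per library. They were 147.2 to 157 TPM and 141.7 to 149.9 TPM for Tcf7l2 in replicates 1 and 2. For Lef1 they were 38.55 to 41.57 TPM and 43.69 to 46.47 TPM, so the bounds of the libraries did not overlap. The same held for Ctnnb1, and no share over all genes is given here for such bounds. For Tcf7l1 they were 37.12 to 40.52 TPM and 36.96 to 40.08 TPM, which overlap those of Lef1 in replicate 1 and lie below them in replicate 2. For Tcf7 they were 5.786 to 7.245 TPM and 6.309 to 7.641 TPM. By mean TPM, Tcf7l2 ranked 1090 among all genes, Lef1 3969, Tcf7l1 4362 and Tcf7 10521.

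Together the 4 factors summed to 241.2 and 239.4 TPM in replicates 1 and 2. Tcf7l2 held 62.8% ± 1.67 of the sum, Lef1 18.1% ± 1.54, Tcf7l1 16.3% ± 0.0125 and Tcf7 2.85% ± 0.139. Ctnnb1 stood at 1.86 and 1.96 times the sum of the 4 factors. These are ratios of RNA levels per length and not of protein, and they take all transcripts of each gene. Protein-coding transcripts held 60.4% and 61.3% of Tcf7l2 TPM, against 94.44% and 93.25% for Lef1. They held 99.31% and 98.35% for Tcf7l1, 100% for Tcf7, and 97.39% and 96.51% for Ctnnb1. Over coding transcripts alone, the share of Tcf7l2 would be lower and the ratio for Ctnnb1 higher.

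Since Tcf7 and Lef1 are also lymphocyte genes, lymphocyte markers were read beside them. Of 10 markers, Lck alone reached 1 TPM in both libraries, at 9.21 and 10.06 TPM. The other 9 were at 0.51 TPM or less in each library, and Cd2 was listed at 0 in both. The 10 summed to 10.17 and 11 TPM. The defining T cell genes Cd3d and Cd3e were at 0.16 TPM or less.

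The scaffolds and the kinase of the destruction complex spanned a wide range of levels. Gsk3b, the kinase, at chr16:38089001-38246084 on the plus strand, had 57.87 and 57.69 TPM (57.8 ± 0.127 TPM). Axin2, a scaffold that is itself switched on by the pathway and is widely read as a sign of its activity, lies at chr11:108920349-108950783 on the plus strand and had 14.96 and 16.41 TPM (15.7 ± 1.03 TPM). Apc, at chr18:34220924-34322552 on the plus strand, had 12.34 and 10.73 TPM (11.5 ± 1.14 TPM). Axin1, the scaffold that is made without need of a signal, lies at chr17:26138688-26195811 on the plus strand and had 10.27 and 9.52 TPM (9.90 ± 0.530 TPM). Axin2 was above Axin1 in both libraries, by 1.58-fold in the mean, with all transcripts of each gene taken. Transcripts with a complete coding sequence held 47.0% and 50.1% of Axin2 TPM, against 87.2% and 81.0% of Axin1 TPM. The leading transcripts did not keep 1 order in both libraries. Axin2-201 had 7.03 and 8.22 TPM, and Axin1-201 had 7.47 and 6.56 TPM.

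Read numbers differed more than TPM among these genes. Gsk3b rests on 8980 and 11536 expected counts and Apc on 2027 and 2693, while Axin2 rests on 803 and 1174 and Axin1 on 664 and 766. The authors' bounds were 55.2 to 58.11 and 55.43 to 58.08 TPM for Gsk3b. They were 13.61 to 16.78 and 15.09 to 18.06 TPM for Axin2, and 8.701 to 13.54 and 7.986 to 12.04 TPM for Axin1. For Apc they were 11.04 to 14.44 and 10.09 to 12.39 TPM, which overlap those of Axin1 in both libraries. The ranks by mean TPM were 3094 for Gsk3b, 7825 for Axin2, 8904 for Apc and 9371 for Axin1.

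The order of levels was Ctnnb1, Tcf7l2, Gsk3b, Lef1, Tcf7l1, Axin2, Apc, Axin1 and Tcf7. A pair of genes was called apart when the sign was shared by both libraries and the log2 ratio of TPM + 0.1 averaged above 2 times a spread taken from 500 genes of like abundance. By this rule 34 of 36 pairs were apart, as were 6 of the 8 neighbours in the order. Lef1 over Tcf7l1 was within the spread, with log2 ratios of 0.06 and 0.24, and so was Apc over Axin1, with 0.26 and 0.17. Axin1 over Tcf7 was just past it, with a mean log2 ratio of 0.52, and Axin2 over Apc was past it with 0.28 in replicate 1 and 0.61 in replicate 2. Both of these last calls were lost when 3 times the spread was asked for. Axin1 over Tcf7 was also within the spread by posterior mean (0.62) and without replicate 1 (0.43), and Axin2 over Apc without replicate 2 (0.28). Without the division by length, on scaled expected counts, Axin2 over Apc turned to a log2 ratio of −1.27. Tcf7l2 over Gsk3b turned to −0.13, which was within the spread. On those counts Tcf7l1 over Apc was within the spread (0.19, against 1.75 by TPM), and both pairs that were within it by TPM were apart, Apc over Axin1 with 1.71 and Lef1 over Tcf7l1 with 0.34. The mean transcript length in the tables was 7981 and 9169 nt for Apc, against 2675 and 2685 nt for Axin2, and 2669 and 2676 nt for Tcf7l2, against 7548 and 7326 nt for Gsk3b.

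**Figure D2:**
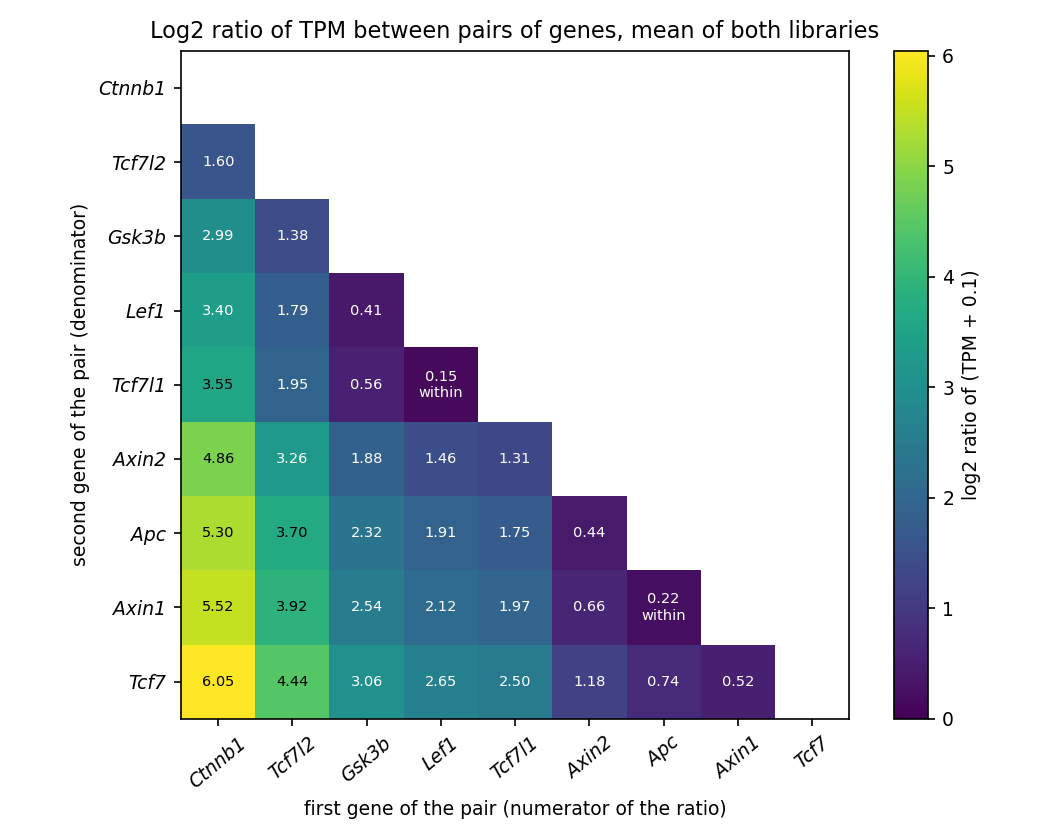
Mean log2 ratio of (TPM + 0.1) of both libraries for each of the 36 pairs, with the numerator gene in the columns and the denominator gene in the rows. The 2 pairs marked "within", at 0.15 and 0.22, did not pass the spread between replicates.

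The libraries differed little in these genes. On scaled counts, the log2 ratio of replicate 2 over replicate 1 ran between −0.23 for Axin1 and 0.13 for Lef1. None of the 9 genes (0 of 9) went past 2 SD of the ratio over genes of like abundance, against 4.02% of the 17406 genes with 10 counts in each library. With so low a share over all genes, 0 of 9 says nothing particular about these genes.

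Transcripts were compared by IsoPct, the percent of a gene's TPM that 1 transcript holds. The 9 genes have 74 transcripts in the tables; 29 had a mean IsoPct of 5 or more and 15 were at 0 in both libraries. At 1 TPM or more in both libraries there were 36 of 74, against 30.7% of all transcripts. The names, exons and reading frames come from GENCODE M21, a later release than the M4 annotation of the tables, and 67 of the 74 transcripts had the same length in both.

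**Figure D3:**
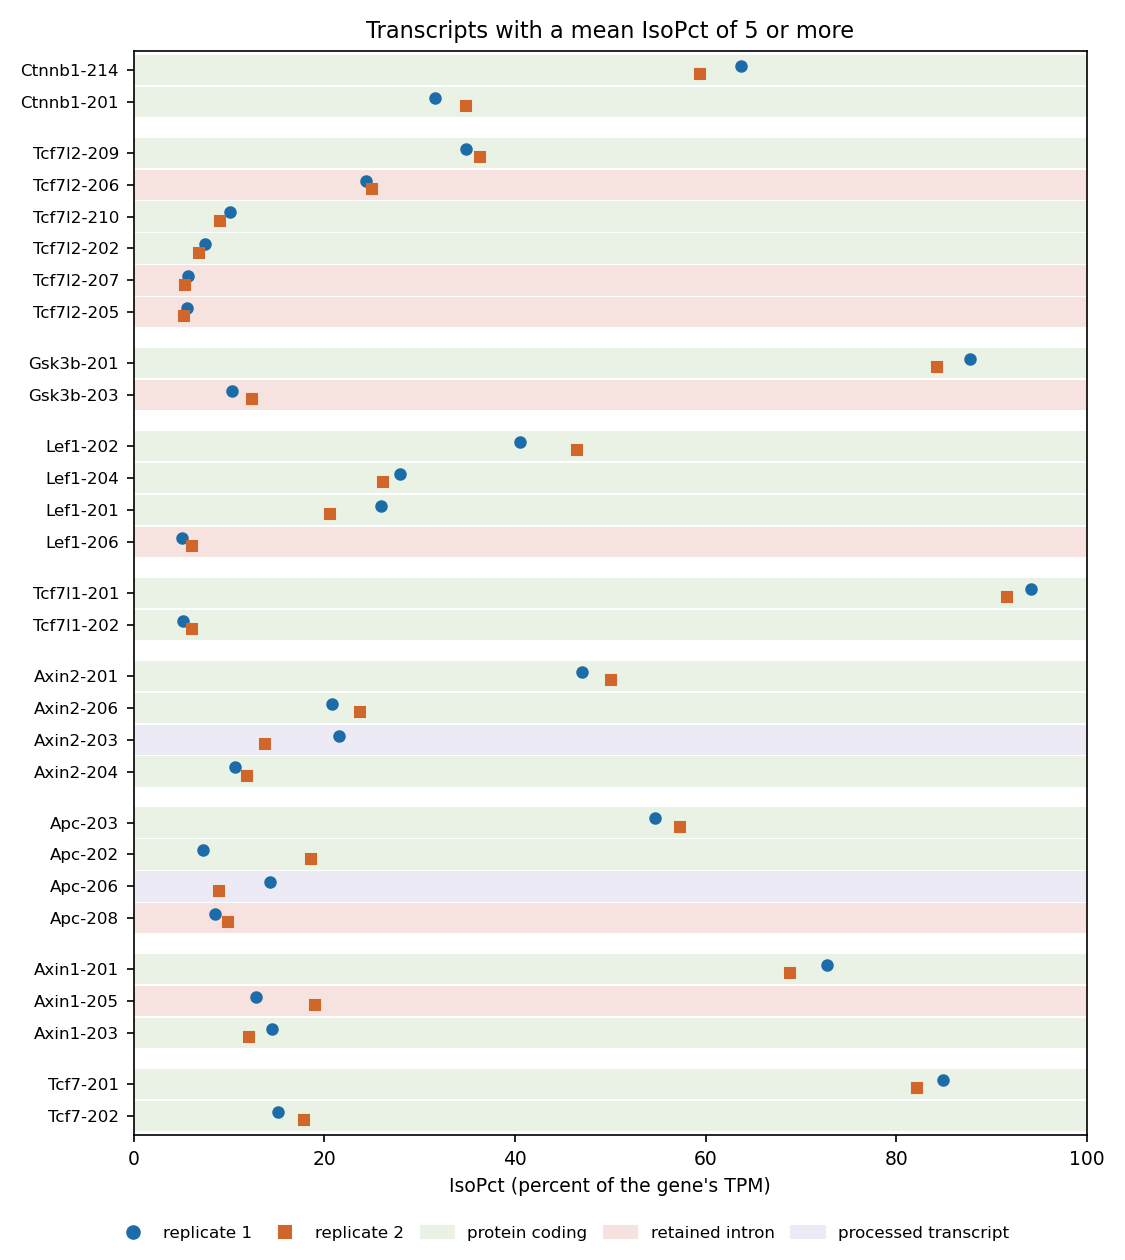
IsoPct of the 29 transcripts with a mean of 5 or more, in replicate 1 (blue circles) and replicate 2 (orange squares), shaded by the annotated type of transcript. Tcf7l1, Gsk3b and Tcf7 each have 1 transcript above 80, while the leading transcripts of Lef1 and Tcf7l2 stay under 50.

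For Ctnnb1, 2 transcripts with the same coding sequence of 2343 nt held nearly all of the level. Ctnnb1-214 had an IsoPct of 63.75 and 59.38 in replicates 1 and 2, and Ctnnb1-201 had 31.63 and 34.86. The length of Ctnnb1-214 was 3422 nt in the tables and 2702 nt in M21, so their split rests on a model that has changed. Both use the start codon at chr9:120950221-120950223, which is the start of every Ctnnb1 coding transcript with an annotated start. The other 12 transcripts were each at a mean IsoPct of 1.94 or less.

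Lef1 was split among 3 coding transcripts. Lef1-202 had an IsoPct of 40.53 and 46.52, Lef1-204 had 27.94 and 26.12, and Lef1-201 had 25.95 and 20.61. They differ by a cassette exon of 84 nt and by the end of the reading frame. The exon was in 27.5% and 22.1% of coding TPM, and the earlier stop codon, at chr3:131204965-131204967, was in 70.4% and 72.0%. The later stop, at chr3:131223153-131223155, was in the rest, 29.6% and 28.0%. The sequences below show the exon (chr3:131191023-131191106) and the last coding bases of each end (chr3:131204933-131204967 and chr3:131223076-131223155), with the stop codons in capitals.
Cassette exon: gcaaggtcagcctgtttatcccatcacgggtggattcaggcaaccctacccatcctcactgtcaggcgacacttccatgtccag
End of Lef1-202: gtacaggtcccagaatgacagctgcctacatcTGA
End of Lef1-204: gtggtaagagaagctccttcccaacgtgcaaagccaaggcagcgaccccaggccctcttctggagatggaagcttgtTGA

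All of the coding TPM of Lef1 (100%) used the start codon at chr3:131111472-131111474. Short forms of Lef1 that lack the beta-catenin binding end are known from an internal promoter. Lef1-203, a coding transcript with an internal start codon at chr3:131112812-131112814, was listed at 0 in both libraries, with upper credibility bounds of 0.602 and 0.318 TPM. Lef1-206, a transcript with a retained intron that begins 2.33 kb after the start of the gene, had 2.07 and 2.8 TPM, an IsoPct of 5.06 and 6.1. Its first exon, at the internal start, is 24 nt of 2066 nt and its longest is 1975 nt, so reads assigned to it need not come from the internal start. Lef1-205, another transcript with a retained intron that begins in the same window, had 15.8 and 29.5 expected counts, and its first exon is 15 nt of 3656 nt. The window around the internal start, chr3:131112541-131112840 on the plus strand (RefSeq, GRCm38.p6), is shown because Lef1-203, Lef1-205 and Lef1-206 begin in it; capitals mark the start codon of Lef1-203.
Lef1 internal window: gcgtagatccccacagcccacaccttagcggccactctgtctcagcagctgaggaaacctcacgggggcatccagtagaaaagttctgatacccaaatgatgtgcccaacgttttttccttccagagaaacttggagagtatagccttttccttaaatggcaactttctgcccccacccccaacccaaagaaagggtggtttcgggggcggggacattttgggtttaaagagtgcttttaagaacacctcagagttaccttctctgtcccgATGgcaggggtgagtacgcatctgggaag

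Tcf7l2 had the most transcripts, 22, and had the lowest share of TPM in transcripts annotated as protein-coding of the 9 genes in both libraries, 60.4% and 61.3%. Transcripts with a retained intron held 37.5% and 37.6% of TPM, but 17.7% and 17.6% of expected counts. Tcf7l2-209, a coding transcript, led with an IsoPct of 34.92 and 36.33, and Tcf7l2-206, with a retained intron, followed with 24.34 and 25. Tcf7l2-210, with an IsoPct of 10.16 and 9.04, has the longest reading frame of these, 1794 nt, against 1377 nt for Tcf7l2-209. Tcf7l2-202 had 7.51 and 6.83, and the retained-intron transcripts Tcf7l2-207 and Tcf7l2-205 had 5.72 and 5.35, and 5.57 and 5.29. The other 16 transcripts together had 11.78 and 12.15.

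Nearly all coding TPM of Tcf7l2, 98.2% in each library, used the start codon at chr19:55742342-55742344, which leaves the beta-catenin binding end in place. An internal start at chr19:55895635-55895637, in Tcf7l2-203, had 1.07% and 1.68%. The ends differed more. The stop at chr19:55927734-55927736, which closes a short tail, was in 59.3% and 61.4%. A stop at chr19:55926724-55926726 was in 6.48% and 6.84%. The stop at chr19:55931511-55931513 was in 17.1% and 16.9%, and the stop at chr19:55931855-55931857, which closes the long tail where binding sites for the corepressor Ctbp are known, was in 16.95% and 14.8%. These last shares lean on transcripts whose length differs between the releases. An alternative chosen after seeing the data took only same-length transcripts. There the short tail was in 92.0% in the mean and the stop at chr19:55931511-55931513 in 7.85%. The long tail and the stop at chr19:55926724-55926726 were in 0%, which the filter fixed in advance. It leaves out Tcf7l2-210, which held all of the long tail, and Tcf7l2-202, which held most of the stop at chr19:55931511-55931513. These shares are therefore no measure of how much the long tail was used.

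The alternative coding exons just before the tails of Tcf7l2 are shown with the tails themselves. An exon of 51 nt (chr19:55924530-55924580) was in 88.8% and 87.0% of coding TPM, and one of 73 nt (chr19:55925977-55926049) in 82.8% and 83.0%. The last exon holds 3 annotated stops, each in a frame of its own when counted from the first base of the exon. The sequence from that base (chr19:55931434-55931513) is given with the stop of Tcf7l2-202 in capitals. The stop of Tcf7l2-211 (chr19:55931467-55931469), used in 0.0973% and 0.155% of coding TPM, also lies in it, in lower case. The last line is the end of the reading frame of Tcf7l2-210 (chr19:55931798-55931857), with its stop in capitals.
Exon of 51 nt: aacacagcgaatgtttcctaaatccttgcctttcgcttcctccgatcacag
Exon of 73 nt: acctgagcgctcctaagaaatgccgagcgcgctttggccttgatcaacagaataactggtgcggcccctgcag
Last exon, coding start: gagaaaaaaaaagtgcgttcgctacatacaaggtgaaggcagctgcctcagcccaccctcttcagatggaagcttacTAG
End of the long tail: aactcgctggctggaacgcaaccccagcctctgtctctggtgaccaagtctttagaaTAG

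**Figure D4:**
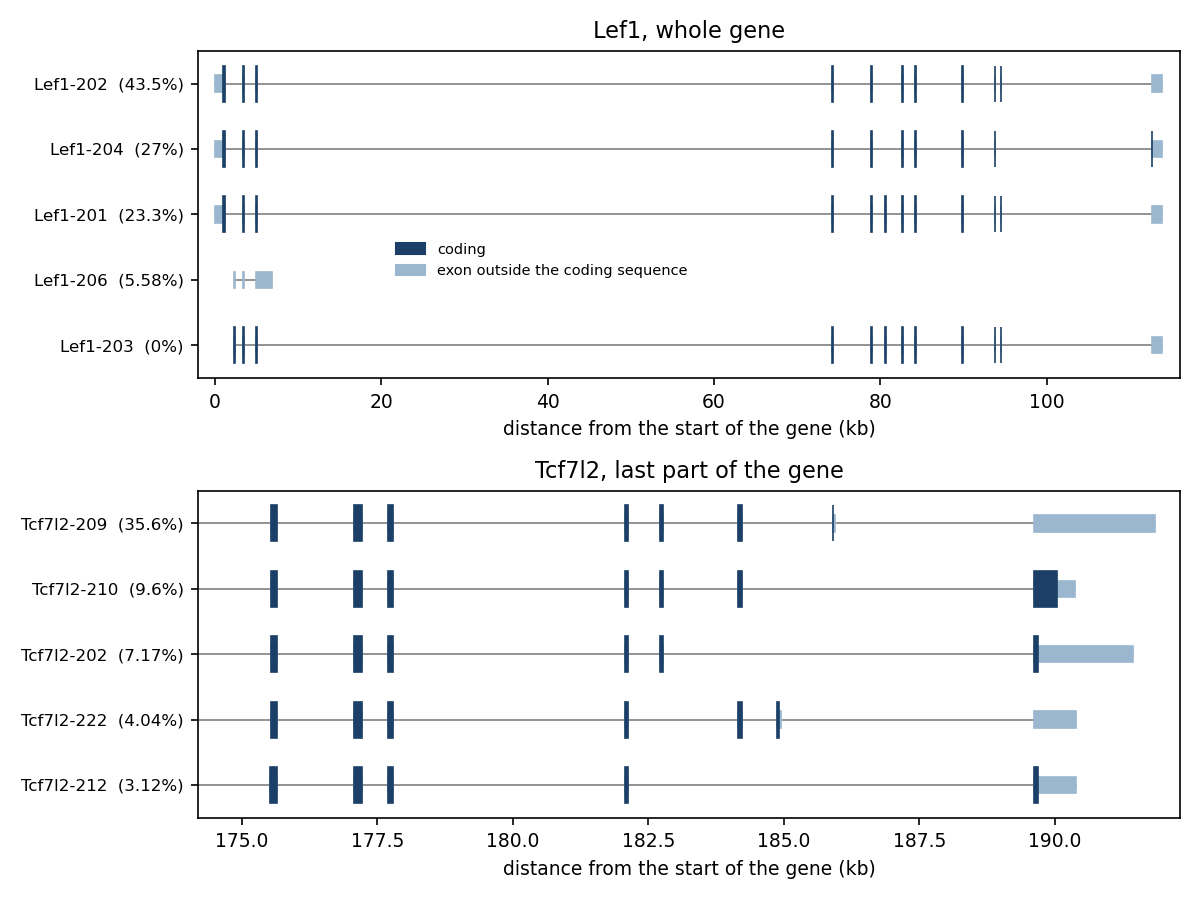
Exons of the Lef1 transcripts (top, whole gene) and of the 5 leading coding transcripts of Tcf7l2 (bottom, last part of the gene) against distance from the start of the gene in kb, with coding parts tall and dark and the mean IsoPct beside each name. Lef1-204 skips the short exon that holds the earlier stop, and Tcf7l2-210 reads on into the last exon where Tcf7l2-209 has already stopped.

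Upstream of the HMG box, Tcf7l2 has small alternative segments. The last 12 bases of an exon at chr19:55910579-55910681 were in 99.9% of coding TPM in each library. Tcf7l2-206, the retained-intron transcript with the second highest IsoPct, lacks these 12 bases, and over all transcripts that reach across them, coding or not, they were in 74.9% and 74.1% of TPM. The first 15 bases of an exon at chr19:55917339-55917379 were in 4.67% and 5.84% of coding TPM, and in 14.5% and 13.9% over all transcripts. A cassette exon of 69 nt near the start of the gene was in 6.65% and 7.11% of coding TPM. With only same-length transcripts, which leaves out the main coding transcript holding this exon, it was in 0.196% in the mean. Tcf7l2-206 holds this exon too, so that over all transcripts it was in 29.5% and 30.3% of TPM, and in 12.5% and 13.1% of expected counts. The shares over all transcripts were chosen after seeing the data, and the length of Tcf7l2-206 was 1041 nt in the tables and 1087 nt in M21. The sequences are given with the 12 and the 15 bases in capitals.
Exon end: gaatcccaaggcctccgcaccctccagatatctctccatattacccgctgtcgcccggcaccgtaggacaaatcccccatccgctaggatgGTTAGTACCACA
Exon start: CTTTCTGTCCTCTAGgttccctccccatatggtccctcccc

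Tcf7l1 was nearly all 1 transcript. Tcf7l1-201 had an IsoPct of 94.11 and 91.65, and Tcf7l1-202, which adds a cassette exon of 42 nt (chr6:72648801-72648842), had 5.21 and 6.15 from 76.2 and 118.5 expected counts. Tcf7-201 had 84.87 and 82.14 and Tcf7-202 had 15.13 and 17.86. Both Tcf7 transcripts have the same start codon, at chr11:52282215-52282217, and the same coding length of 909 nt. The tables hold no Tcf7 transcript with another start codon. They therefore cannot separate Tcf7 forms with and without the beta-catenin binding end, and a form that starts elsewhere has no entry of its own. Bases upstream of chr11:52283014 on the minus strand belong to no Tcf7 transcript here. Whether the listed reading frame of 909 nt includes the beta-catenin binding end was not tested. The Tcf7 level therefore need not be that of a form that beta-catenin binds.

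The genes of the destruction complex were less evenly measured. Gsk3b-201 had an IsoPct of 87.79 and 84.26, and Gsk3b-203, with a retained intron, had 10.3 and 12.4, or 2.89% and 3.58% of expected counts. Gsk3b-202 adds an exon of 39 nt (chr16:38217113-38217151) that was in 2.14% and 3.80% of coding TPM and in 0.437% and 0.790% of coding expected counts; longer Gsk3b is known from the nervous system. Its sequence is given because it is the only coding difference between the forms of the kinase in the tables.
Gsk3b exon of 39 nt: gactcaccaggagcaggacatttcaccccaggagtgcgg

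Axin1-201 had an IsoPct of 72.7 and 68.89, and Axin1-203, which lacks an exon of 108 nt (chr17:26192516-26192623), had 14.47 and 12.09, so the exon was in 83.4% and 85.1% of coding TPM. Axin1-205, with a retained intron and 291 nt long, had 12.83 and 19.02, but from 5.27 and 9.62 expected counts. Axin2-201, the full-length form, had 47.01 and 50.11 by TPM, and 78.3% in the mean as a share of expected counts. Axin2-203, a transcript without a reading frame, had 21.55 and 13.83. Axin2-206 and Axin2-204, whose annotated reading frames are incomplete, had 20.8 and 23.72, and 10.64 and 11.9. Apc-203 had 54.73 and 57.31, and Apc-202 had 7.28 and 18.61, the widest gap between the libraries among these transcripts, with a length of 8867 nt in the tables and 12811 nt in M21. Apc-206, without a reading frame, had 14.32 and 8.92 from 12.4 and 8.9 expected counts, and Apc-208, with a retained intron, had 8.53 and 9.9.

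Genes that overlap the 9 were looked at because it is not known whether counting used the strand of the reads. Ulk4, on the opposite strand at the end of Ctnnb1, was at 2.41 and 2.47 TPM. Gm15402, opposite an intron of Tcf7l1, was at 2.61 and 2.03 TPM. Gm27931, a small RNA gene opposite an intron of Gsk3b, was at 4.8 and 1.2 TPM. The other opposite-strand genes with a value were under 1 TPM in both libraries. On the same strand as Tcf7l1 and within its introns, Gm37736 was at 4.32 and 3.96 TPM and Gm37969 at 1.3 and 1.28 TPM. The other same-strand genes with a value were under 1 TPM in both libraries.

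Partners of the 9 genes were read from lists. Of all protein-coding genes, 61% were at 1 TPM or more in both libraries and 40.9% at 10 TPM or more. As the lists were picked by name, their counts say nothing of what is particular to them. Of the 19 further genes of the destruction complex and its regulators, 19 were at 1 TPM or more in both libraries and 13 at 10 TPM or more, with a median of 25.5 TPM. The highest were Ppp2r1a, a phosphatase 2A subunit (262 TPM), Csnk1a1, the priming kinase (229 TPM), and Csnk1d (112 TPM), and the lowest was Amer2 (1.79 TPM). Of 12 nuclear partners that activate, 12 were at 1 TPM or more and 10 at 10 TPM or more, with a median of 38.1 TPM. Smarca4, a chromatin remodeller, had 79.5 TPM, Bcl9, which binds beta-catenin, had 76.9 TPM, and Tbl1x had 69.5 TPM, while Pygo1, which binds Bcl9, had 7.94 TPM. Of 14 nuclear partners that repress, 14 were at 1 TPM or more and 13 at 10 TPM or more, with a median of 52.7 TPM. Aes, a short member of the Tle family, had 338 TPM, the deacetylase Hdac2 had 260.3 TPM, the corepressor Ctbp1 had 236 TPM, and Sox17 had 6.36 TPM.

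Of 21 other direct targets, 18 were at 1 TPM or more and 10 at 10 TPM or more, with a median of 11.2 TPM. Among protein-coding genes 61% and 40.9% reached these levels in both libraries, so the count at 10 TPM was near that share. Ccnd1, a cyclin, had 136.5 TPM, Wif1, a secreted Wnt inhibitor, had 88.2 TPM, and Myc had 52.3 TPM. T, Cdx1 and Fgf20 were under 1 TPM, at 0.655, 0.165 and 0.135 TPM. Of 13 cadherin and catenin partners at the membrane, 12 were at 1 TPM or more and 10 at 10 TPM or more, with a median of 26.6 TPM. Cdh11, a mesenchymal cadherin, had 199 TPM, Ctnna1, which joins beta-catenin to actin, had 109.8 TPM, Jup, a close relative of beta-catenin, had 56.7 TPM, and Ctnna3 had 0.74 TPM. A letter search of the promoter windows found the Tcf/Lef motif CTTTGAT, on either strand, in 0 of the 13 windows of 300 bases available for 7 of the 9 genes, against 3.73% of 32851 windows in all (RefSeq, GRCm38.p6); this says only that these letters are not in those windows.

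**Figure D5:**
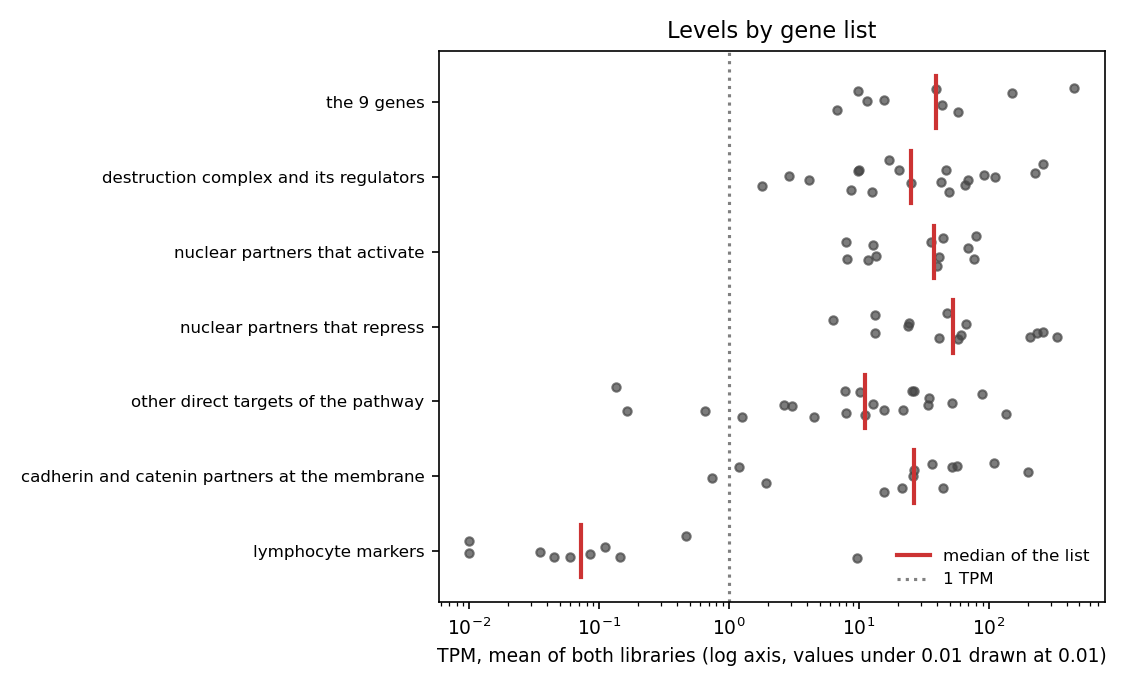
TPM of each gene (mean of both libraries, log axis) by list, with the list's median as a red line and 1 TPM as a dotted line; values under 0.01 are drawn at 0.01. The median of the 9 genes is 39.1 TPM, and of 10 lymphocyte markers 9 lie below 1 TPM.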

How the data were processed

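Total RNA-seq tables of both E13.5 limb libraries were used, with groups and replicate numbers from the labels. Reads were mapped to mm10, per the labels, with GENCODE M4, per the deposited text files; for the aligner, the quantifier and strand, the processing is not given in the sources used here. The deposited expected counts are model estimates, the deposited TPM values divide them by effective length, the deposited percent column (IsoPct) gives each transcript's share of its gene, and the credibility bounds are a TPM signal from the authors' model, per the file headers. The tables held 31927117 and 43194518 expected counts. Rows naming no gene took 0.000181% of counts and were left out.

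Expected counts were rounded for TMM scaling in edgeR 4.0.16 (R 4.3.3), over genes with 10 counts in each library, with 0.5 added; DESeq2 1.42.0 gave an alternative. Other steps used Python 3.11.15, numpy 2.4.6 and pandas 2.3.3. The library ratio and the spread were tested on simulated data, and the pair rule was not. Positions, types and reading frames came from GENCODE M21, and 42462 of 43346 genes had a symbol (98.0%). Shares of coding TPM were summed over coding transcripts that reach the feature. Aes stood for the listed name Tle5, which was not matched. The text names all 9 genes, transcripts with a mean IsoPct of 5 or more, and the 3 highest, the lowest and those under 1 TPM of each list; Lef1-203, Lef1-205, Tcf7l2-203, Tcf7l2-211, Gsk3b-202 and the overlapping genes were added after their values were seen, and of the lymphocyte markers those that bear on Tcf7 and Lef1 are given. Genes and lists were chosen with earlier results of these data known. Alternatives were other estimates, scalings, thresholds, spreads and single libraries.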

Additional observations from a re-analysis of the deposited data

How the results depend on the processing

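By posterior mean, levels stayed within 1 SD except that Tcf7l1 was 38.6 and Gsk3b 56.7 TPM, below both libraries' values. With 2 libraries, each always lies within 1 SD of their mean, so single libraries could not fail this measure. Single libraries gave 33 of 36 pairs apart and 5 of 8 neighbours, and 9 of 9 genes at 1 TPM. On scaled expected counts, where the division by length is what was taken away, the sign turned for 2 pairs. Axin2 over Apc went to −1.27 (log2), while Tcf7l2 over Gsk3b went to −0.13 and lost its call. There Tcf7l1 over Apc lost its call too (0.19), and Apc over Axin1 (1.71) and Lef1 over Tcf7l1 (0.34) gained one. In that setting 34 pairs and 7 of 8 neighbours were apart. As shares of expected counts the leading transcripts had 88.0% (Tcf7-201), 96.2% (Tcf7l1-201), 48.9% (Tcf7l2-209), 86.7% (Axin1-201), 78.3% (Axin2-201), 81.2% (Apc-203) and 96.2% (Gsk3b-201), and protein-coding transcripts had 98.1% (Ctnnb1), 95.96% (Lef1), 99.8% (Tcf7l1), 81.9% (Tcf7l2), 98.98% (Axin1), 95.7% (Apc) and 96.8% (Gsk3b). By posterior mean, Axin1-201 had 65.7, Axin2-201 46.2 and Apc-203 53.1, and protein-coding transcripts 95.4% of Ctnnb1 and 60.1% of Tcf7l2; the cause was not tested. DESeq2 size factors and the spike-in total shifted library ratios by 0.0002 and 0.026 on the log2 scale. No paired analysis was possible because there is 1 group. Depth limits the short transcripts most: Axin1-205 and Apc-206 rest on 5.27 to 12.4 counts a library, and an estimate of 0 there is no proof of absence.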
